A study of Homo sapiens with 6 samples.

Results

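Prostaglandin synthesis genes were followed as a group of 10 around PTGS2, the inducible cyclooxygenase. The group held PLA2G4A, PTGS1, PTGS2, PTGES, PTGES2, PTGES3, PTGER2, PTGER4, SLCO2A1 and HPGD. The members were taken by gene symbol from the deposited read counts, and all 10 were found among the 39323 genes listed there. All 10 were also among the 16869 genes with enough reads to be tested. The group was chosen by the pathway around PTGS2, with measured log2 fold changes between these same siSF3B6 and siNC libraries in view. Its members' changes are therefore given as a description, without p-values. The cells were MDA-MB-231, an established human breast cancer line with mesenchymal features, grown in medium with fetal bovine serum. They were transfected by a lipid reagent with an siRNA duplex against SF3B6 (siSF3B6, 3 libraries) or with a non-targeting duplex (siNC, 3 libraries). SF3B6 encodes the p14 protein, which contacts the intron branch point within the U2 particle of the spliceosome. The sequenced RNA was polyadenylated; the libraries are described as biological replicates of a single line and a single SF3B6 duplex, and all 6 went through transfection. The labels do not say which libraries came from separate cultures.

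Prostaglandin E2 synthesis starts when a phospholipase frees arachidonate from membrane phospholipid. The cyclooxygenases convert arachidonate to prostaglandin H2, and terminal synthases turn prostaglandin H2 into prostaglandin E2, which leaves the cell and acts on G protein-coupled receptors. Uptake by a transporter and oxidation by a dehydrogenase end the signal. In breast and other carcinomas PTGS2 is the cyclooxygenase known to be induced by growth factors, cytokines and cellular stress, with a short-lived mRNA rich in AU motifs.

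The sequences of the duplexes are shown because they define the contrast, and because the antisense (guide) strand of a duplex can pair through its seed with other transcripts. Guide strands are written 5′ to 3′ without the overhang, as the reverse complement of the sense strand in the labels, with the seed (bases 2 to 8) in capitals.
siSF3B6 guide: aAGCUUCAacuguuccucc
siNC guide: aCGUGACAcguucggagaa

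The promoters of PTGS2 and PTGES are shown as those of the inducible cyclooxygenase and of the synthase usually induced with it, which moved in opposite directions. Each run is the 250 bases before the transcription start in the RefSeq annotation of GRCh38.p14, on the minus strand of the genome and so read along the gene, at chr1:186680424-186680673 for PTGS2 and chr9:129753043-129753292 for PTGES. Capitals mark the motif matches described further on.
PTGS2: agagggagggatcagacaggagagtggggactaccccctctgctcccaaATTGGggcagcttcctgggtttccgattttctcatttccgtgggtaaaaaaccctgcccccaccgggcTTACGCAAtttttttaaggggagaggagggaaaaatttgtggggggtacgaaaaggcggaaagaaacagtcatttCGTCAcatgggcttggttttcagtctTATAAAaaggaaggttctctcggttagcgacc
PTGES: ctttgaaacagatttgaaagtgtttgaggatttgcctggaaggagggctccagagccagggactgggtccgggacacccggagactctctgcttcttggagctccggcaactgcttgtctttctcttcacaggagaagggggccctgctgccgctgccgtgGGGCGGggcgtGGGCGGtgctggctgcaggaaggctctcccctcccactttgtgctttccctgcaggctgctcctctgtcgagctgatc

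The libraries held 28504091 to 38546037 counted reads. SF3B6, the targeted gene, was at 86.4, 80.6 and 102 CPM (reads per library size, scaled with TMM factors) in siNC replicates 1 to 3. It was at 22.5, 25.02 and 21.3 CPM in siSF3B6. This was 25.6% of the siNC level, a log2 fold change of -1.96 (SE 0.104), with an adjusted p of 1.43e-07 in edgeR's quasi-likelihood test. A two-sided exact permutation test on its CPM gave p = 0.1, and 3 against 3 libraries allow no smaller value. The libraries did not stand equally close within groups: replicates 1 and 2 of each group differed by a chi-square per gene of 3.74 (siNC) and 2.33 (siSF3B6), against 18.1 to 74.9 for pairs with replicate 3. Whether replicates 1 and 2 are independent of each other is not known, and if they are not, n = 3 overstates the replication and the standard errors and p-values are too small. Those 4 libraries alone gave 9470 genes called, against 6889 with all 6. Mitochondrially encoded genes took 3.38%, 3.93% and 9.07% of the reads in siNC and 10.6% to 11.8% in siSF3B6. Genes with at least 1 read numbered 30930, 32041 and 24579 in siNC replicates 1 to 3 and 24516 to 25566 in siSF3B6. On this count siNC replicate 3 fell within the siSF3B6 range, while siNC replicates 1 and 2 stood above it. What set siNC replicates 1 and 2 apart was not tested. The mesenchymal marker VIM was at 2882 to 3320 CPM, and ESR1, the estrogen receptor, was at no more than 0.133 CPM. Of 6 luminal and epithelial markers tested, 3 were called higher in siSF3B6 (EPCAM, CDH1 and GATA3) and none lower, with summed levels of 2235 to 2409 CPM in siNC and 2274 to 2686 CPM in siSF3B6. Of endothelial markers, both that were tested (PECAM1 and KDR) were called lower, with sums of 12.3 to 13.9 and 9.16 to 10.9 CPM, and the defining marker CDH5 was at or below 0.066 CPM. Fibroblast markers summed to 13.2 to 16.9 CPM in siNC and 17.4 to 27.0 CPM in siSF3B6, with 2 of 5 tested called higher and 1 lower, and leukocyte markers summed to 20.8 to 23.3 and 21.9 to 26.2 CPM, with 2 of 5 called higher. Their part in the results was not tested. In such bulk libraries, fewer cells with a transcript and less of it per cell cannot be told apart. Every p-value reflects only how much these libraries vary.

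Of the 10 members, 3 were called higher and 5 lower in siSF3B6 at an adjusted p under 0.05, and 2 were not called. Those called higher were PTGS2, PTGER4 and HPGD. Those called lower were PTGS1, PTGES, PTGES2, PTGES3 and SLCO2A1. Of all genes tested, 40.8% were called, 20.8% higher and 20.0% lower, and nothing is read from the members' count because this contrast chose them. The same 8 members had groups that did not overlap in CPM, which held for 52.1% of all genes tested (26.3% higher and 25.9% lower). The members' median log2 fold change was -0.35, beside 0.0009 over all genes tested.

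**Figure D1:**
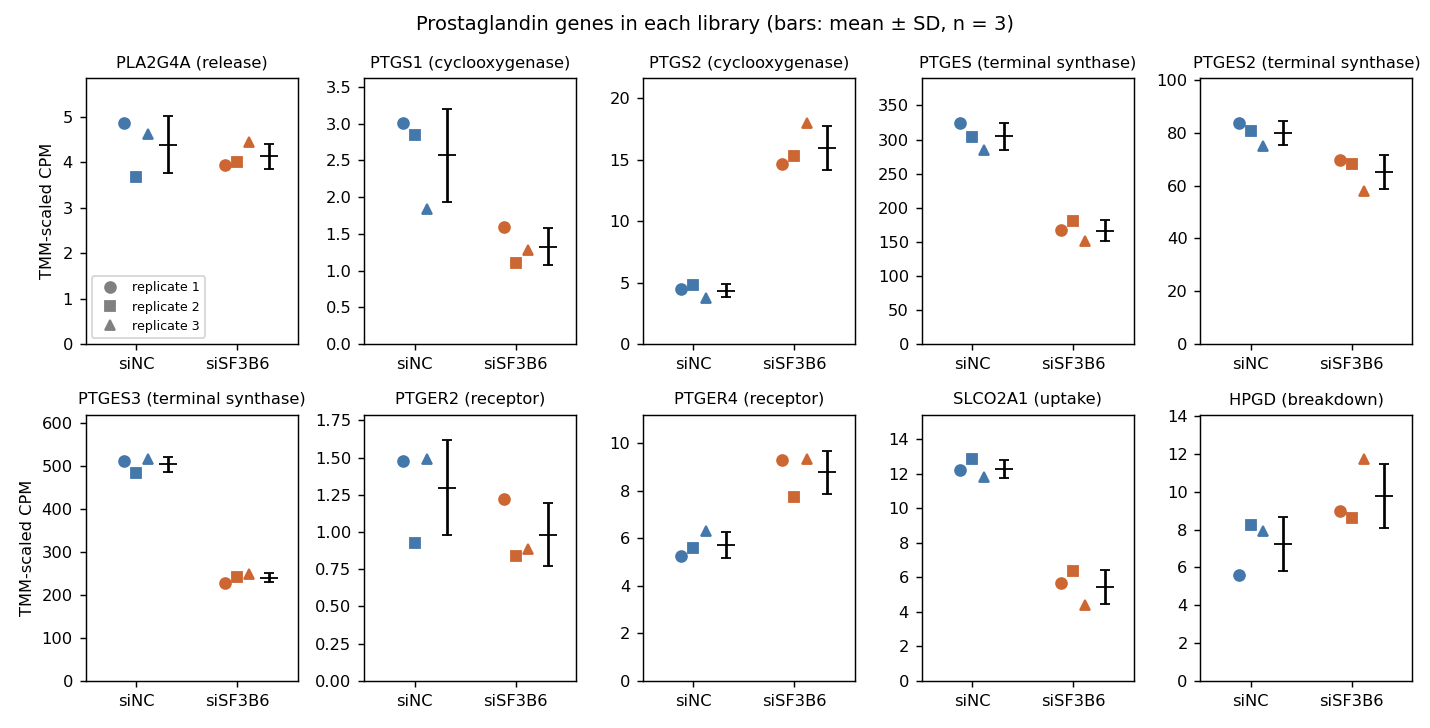
TMM-scaled CPM of the 10 members in each library (points, shaped by replicate number, with bars of mean ± SD beside them), 1 panel per gene with its own axis from 0. PTGS2 lies at 3.78 to 4.8 CPM in siNC and 14.6 to 18.0 CPM in siSF3B6, while PTGES, PTGES3 and SLCO2A1 lie lower in every siSF3B6 library than in any siNC library.

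At the first step, PLA2G4A did not pass the threshold. PLA2G4A encodes cytosolic phospholipase A2 alpha, which frees arachidonate after a calcium signal. It was at 4.87, 3.68 and 4.61 CPM in siNC and at 3.95, 4.01 and 4.45 CPM in siSF3B6. The siSF3B6 values all lay within the siNC range, and the log2 fold change was -0.09 (SE 0.149).

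The cyclooxygenases moved in opposite directions. PTGS2 was at 4.52, 4.8 and 3.78 CPM in siNC, from 141, 145 and 127 reads. It was at 14.6, 15.3 and 18.0 CPM in siSF3B6, from 430, 566 and 551 reads. Every siSF3B6 library stood well above every siNC library, and the mean went from 4.37 ± 0.528 to 16.0 ± 1.79 CPM (SD, n = 3 each). This was 3.67-fold, a log2 fold change of 1.87 (SE 0.128). PTGS1, the constitutive cyclooxygenase, was at 3.01, 2.85 and 1.85 CPM in siNC and at 1.6, 1.11 and 1.28 CPM in siSF3B6. The groups did not overlap, but siNC replicate 3 lay close to the siSF3B6 libraries. The mean fell from 2.57 ± 0.632 to 1.33 ± 0.249 CPM, 1.94-fold, with a log2 fold change of -0.96 (SE 0.232). Set against siNC replicate 3 alone, the PTGS1 log2 fold change was -0.50 and not called.

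All 3 terminal prostaglandin E synthases fell. PTGES encodes the microsomal synthase that is usually induced together with PTGS2. It was at 324.6, 304.3 and 284.9 CPM in siNC and at 166.9, 181.3 and 151.6 CPM in siSF3B6. The highest siSF3B6 library stood far below the lowest siNC library, and the level was 1.83-fold lower, a log2 fold change of -0.87 (SE 0.0876). PTGES3 encodes p23, the cytosolic synthase that is also a co-chaperone of HSP90. It was at 512.9, 482.8 and 515.4 CPM in siNC and at 228.7, 242.0 and 248.8 CPM in siSF3B6. The level was 2.10-fold lower (log2 fold change -1.07, SE 0.079), with no overlap. Its annotated pseudogene PTGES3P1 held 33 to 48 reads in each of the 6 libraries; how reads common to gene copies were counted is not given in the sources used here.

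PTGES2, a membrane-associated synthase, changed least of the 3. It was at 83.8, 80.7 and 74.8 CPM in siNC and at 69.7, 68.1 and 57.9 CPM in siSF3B6. The groups were apart by a margin smaller than the range within either, and the log2 fold change was -0.29 (SE 0.0895). The call was lost without siNC replicate 1 (-0.26) or siNC replicate 2 (-0.28). It was also lost in an unfiltered fit of the deposited length-scaled values, log2(FPKM + 1) (-0.31). Against siNC replicate 3 alone the value was -0.21, and it was 0.03 once GC content and length were entered as an offset.

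The 2 prostaglandin E2 receptors in the group raise cyclic AMP through Gs. PTGER4, which encodes the EP4 receptor, was at 5.26, 5.6 and 6.31 CPM in siNC and at 9.29, 7.74 and 9.32 CPM in siSF3B6. It rose 1.53-fold, a log2 fold change of 0.61 (SE 0.127), with the lowest siSF3B6 library above the highest siNC library. Against siNC replicate 3 alone it was 0.46 and not called. PTGER2, which encodes EP2, had few reads. It was at 1.47, 0.93 and 1.49 CPM in siNC and at 1.23, 0.84 and 0.88 CPM in siSF3B6, from 27 to 50 reads per library. The groups overlapped, and its log2 fold change of -0.41 (SE 0.267) did not pass the threshold.

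Uptake and breakdown moved in opposite directions. SLCO2A1 encodes the transporter that takes prostaglandins back into cells. It was at 12.2, 12.8 and 11.8 CPM in siNC and at 5.65, 6.34 and 4.38 CPM in siSF3B6. The siNC libraries all stood well above the siSF3B6 libraries, and the level was 2.24-fold lower (log2 fold change -1.16, SE 0.133). HPGD, the dehydrogenase that inactivates prostaglandin E2, was at 5.58, 8.22 and 7.92 CPM in siNC and at 8.99, 8.64 and 11.7 CPM in siSF3B6. The groups were apart by less than the spread within either, and the log2 fold change was 0.43 (SE 0.159). HPGD was the least stable call: it was lost in 11 of 21 alternatives, among them leaving out siNC replicate 1 (0.27), siSF3B6 replicate 1 (0.48) or siSF3B6 replicate 3 (0.28).

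**Figure D2:**
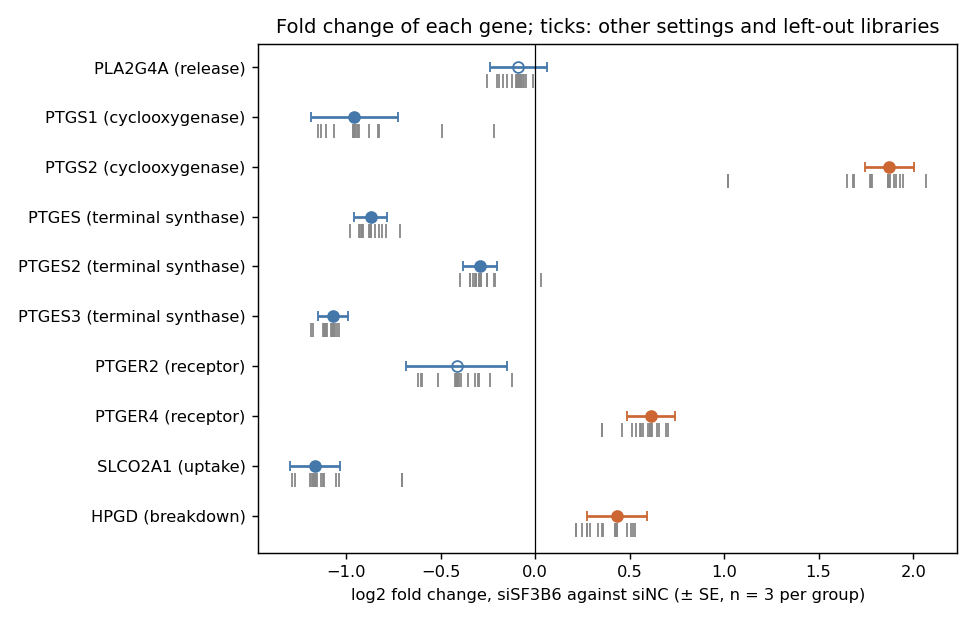
Log2 fold change of each member, siSF3B6 against siNC, from the edgeR quasi-likelihood fit, with bars of 1 standard error (filled: called) and grey ticks for the values under the alternatives. PTGS2 stands at 1.87 on the higher side and SLCO2A1 at -1.16 on the lower side, with PLA2G4A and PTGER2 not called.

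PTGS2, PTGES, PTGES3 and SLCO2A1 were called under every one of the 21 alternatives. Their log2 fold changes spanned 1.02 to 2.07 for PTGS2, -0.98 to -0.72 for PTGES, -1.19 to -1.04 for PTGES3 and -1.29 to -0.70 for SLCO2A1. The values nearest to 0 for PTGS2 and SLCO2A1 came from log2(FPKM + 1), a scale that understates the change of genes at low levels.

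Levels of different genes were compared in FPKM, the authors' values scaled to gene length and library depth. In siNC the terminal synthases stood far above the rest. PTGES was at 137.8 ± 8.26 FPKM and PTGES3 at 126.9 ± 5.77 FPKM (SD, n = 3), and their libraries overlapped. PTGES2 followed at 11.2 ± 0.560, SLCO2A1 at 2.05 ± 0.0625, PTGER4 at 1.38 ± 0.140, PLA2G4A at 1.31 ± 0.199 and HPGD at 1.12 ± 0.225 FPKM. PTGER4 and PLA2G4A overlapped, as did PLA2G4A and HPGD, while every PTGER4 library was above every HPGD library. PTGS2 took place 8 of 10 in siNC, at 0.68 ± 0.0721 FPKM. PTGER2 at 0.45 ± 0.113 and PTGS1 at 0.383 ± 0.0907 FPKM came last, and these 2 overlapped.

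In siSF3B6 PTGS2 took place 4, at 2.41 ± 0.268 FPKM, below PTGES (72.7 ± 6.63), PTGES3 (58.2 ± 2.48) and PTGES2 (8.85 ± 0.880). It stood above PTGER4 (2.05 ± 0.205) and HPGD (1.46 ± 0.247), and no neighbours in this order overlapped. SLCO2A1 went the other way, from place 4 to place 8, at 0.877 ± 0.163 FPKM. PLA2G4A was at 1.18 ± 0.0757, PTGER2 at 0.33 ± 0.07 and PTGS1 at 0.19 ± 0.0361 FPKM. The synthases PTGES, PTGES3 and PTGES2 thus kept the highest places in both groups.

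**Figure D3:**
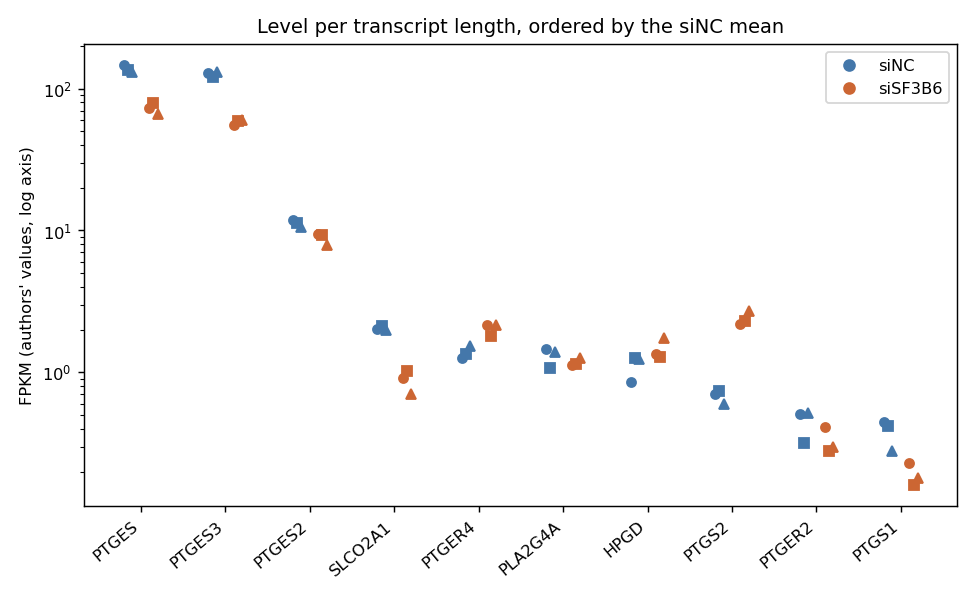
Deposited FPKM of the 10 members on a log axis, with a point per library, shaped by replicate number, and genes ordered by their siNC mean. PTGS2 moves from 0.68 FPKM in siNC to 2.41 FPKM in siSF3B6, past HPGD, PLA2G4A, PTGER4 and SLCO2A1.

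Ratios within a library show the balance between steps of the pathway, as descriptions. The FPKM ratio of PTGS2 to PTGS1 was 1.56, 1.76 and 2.14 in the siNC libraries and 9.57, 14.4 and 15.1 in the siSF3B6 libraries. The ratio of PTGES to PTGS2 was 209.6, 184.2 and 217.4 in siNC and 33.1, 34.3 and 24.4 in siSF3B6. The inducible cyclooxygenase was thus the more abundant cyclooxygenase transcript in all 6 libraries, and the terminal synthase remained the more abundant of the PTGES and PTGS2 pair. Among the synthases, PTGES to PTGES2 went from 12.5, 12.1 and 12.3 in siNC to 7.70, 8.57 and 8.43 in siSF3B6. PTGES3 to PTGES was 0.879, 0.883 and 1.01 in siNC and 0.762, 0.743 and 0.913 in siSF3B6, with siNC and siSF3B6 libraries overlapping. The receptor ratio PTGER4 to PTGER2 was 2.49, 4.19 and 2.96 in siNC and 5.27, 6.46 and 7.23 in siSF3B6.

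The members lie on 7 chromosomes, and those of neighbouring steps are in part close together. In GENCODE 29 on GRCh38, PTGS2 spans chr1:186671791-186680427 on the minus strand with 10 exons, and PLA2G4A spans chr1:186828953-186988981 on the plus strand with 18 exons. The 148525 bases between them held 1 annotated gene and no protein-coding gene, and the neighbours differed in response (1.87 for PTGS2, -0.09 for PLA2G4A). PACERR, a noncoding RNA at the PTGS2 promoter, had 2, 9 and 1 reads in siNC and 13, 8 and 9 in siSF3B6, too few to be tested. Chromosome 9 held PTGS1 (122370530 to 122395703, plus strand, 11 exons), PTGES2 (128120693 to 128128462, minus strand, 7 exons) and PTGES (129738331 to 129753047, minus strand, 3 exons), all called lower. PTGES3 is at chr12:56663341-56688408, SLCO2A1 at chr3:133928145-134052184 and HPGD at chr4:174490177-174523154, all on the minus strand. PTGER4 is at chr5:40679498-40693735 and PTGER2 at chr14:52314305-52328606, both on the plus strand. No member shared exonic bases with another annotated gene.

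In the PTGS2 promoter shown above, TATAAA lay at -32 to -27 from the start, and 10.7% of 35116 RefSeq promoters of that length held it on either strand. TGACG, the core of a cyclic AMP response element, lay on the minus strand at -58 to -54 (21.2% of promoters). The C/EBP pattern TTNNGNAA lay at -133 to -126 and reads as a match on both strands (33.2%). CCAAT lay on the minus strand at -201 to -197 (32%). The PTGES promoter held none of these and instead GGGCGG, the GC box, at -89 to -84 and at -78 to -73 (42.6% of promoters hold it). The promoters also differed in composition, with 50.4% GC for PTGS2 and 61.2% for PTGES, against a median of 58.0% over all promoters. No match was found in either window for CACGTG, a form of the E-box (6.34% of promoters), or TGANTCA, the AP-1 pattern (6.57%). The NF-kB pattern searched (9.96%) had none either. Variants of these patterns were not counted, so a window without a match may still hold a site for such factors. Both strands were searched for each motif; a match is a run of letters, not a measured binding site.

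AU-rich pentamers (ATTTA) in the 3′ UTR are the motif bound by proteins that shorten or lengthen the life of cytokine and PTGS2 mRNAs. The PTGS2 3′ UTR of 2562 bases held 22 of them, or 8.59 per kilobase, against a median of 1.57 per kilobase over 13301 tested protein-coding genes. Among the 2013 3′ UTRs within 25% of its length, PTGS2 itself included, only 1 held that many. PTGER4 held 9 in 1357 bases, reached by 68 of 2169 3′ UTRs of similar length, and PLA2G4A held 4 in 473 bases, reached by 69 of 1619. PTGES3 held 6 in 1136 bases and PTGER2 5 in 1152 bases. HPGD held 5 in 1779 bases, SLCO2A1 12 in 6568 bases and PTGS1 3 in 3159 bases. PTGES held 1 in 1280 bases and PTGES2 0 in 452 bases. By density, PLA2G4A had 8.46 per kilobase, PTGER4 6.63 and PTGES3 5.28. The part of the motif in the members' changes was not tested.

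**Figure D4:**
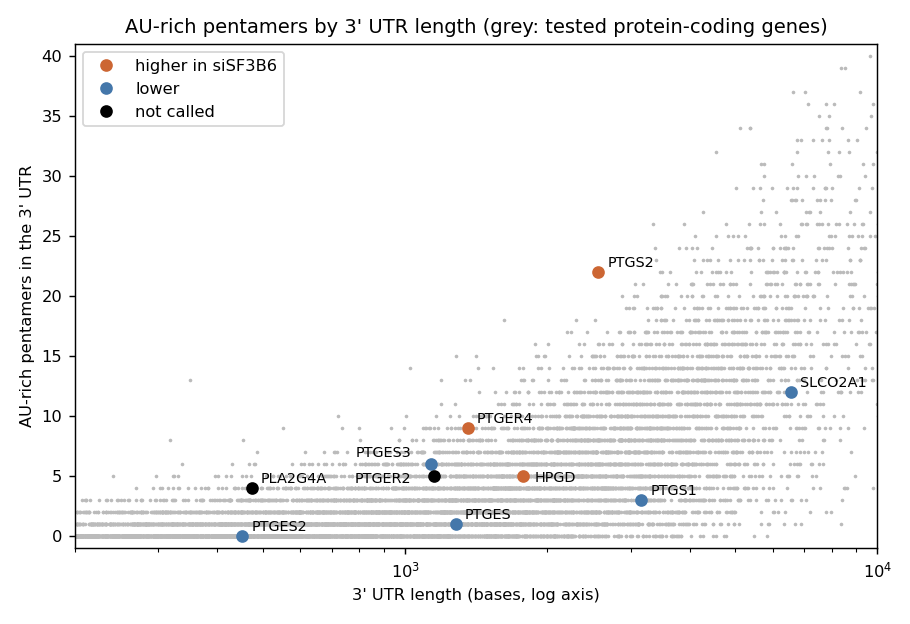
Number of ATTTA pentamers against the length of the 3′ UTR (log axis, bases) for the members (large points, coloured by call) and other tested protein-coding genes (grey). PTGS2 stands above all genes of similar length with 22 pentamers; 1590 3′ UTRs shorter than 200 bases, longer than 10000 bases or with over 40 pentamers are outside the axes.

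The heptamer that pairs with the seed of the siSF3B6 guide, TGAAGCT, occurred in 1784 of the 13301 3′ UTRs (13.4%). It occurred in 4 members, shown with 8 bases on each side and the match in capitals, with its position counted from the first base of the 3′ UTR.
PTGS1 position 728: gtttctcaTGAAGCTaataaaat
PTGES3 position 245: gactttcaTGAAGCTgttgaggt
PTGER2 position 93: aaacaaaaTGAAGCTgccctaat
SLCO2A1 position 5208: tgggtcccTGAAGCTgaggggat

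Of these, PTGS1, PTGES3 and SLCO2A1 were called lower and PTGER2 was not called. PTGES and PTGES2, also lower, held no match, and neither did PTGS2, PTGER4, HPGD or PLA2G4A. Of 3′ UTRs of similar length, 25.4% held a match for PTGS1, 9.12% for PTGES3, 9.14% for PTGER2 and 43.2% for SLCO2A1. Over the 13301 tested protein-coding genes with a 3′ UTR, 26.0% of those with a match were called lower against 22.1% of those without. Shares called higher were 22.6% against 23.3%. Genes with and without a match were not matched for 3′ UTR length here. The part of the match in the members' changes was not tested. The match of the siNC seed, TGTCACG, was in 373 3′ UTRs (2.8%) and in no member. Of genes with the siNC match, 30.6% were called higher against 23.0% of those without, and 18.5% against 22.8% were called lower. The part of the siNC duplex in these shares was not tested.

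The genes whose log2 CPM followed PTGS2 most closely over the 6 libraries were EPCAM (Pearson r = 0.999), NR4A2 (0.999), IRAK2 (0.999), JARID2 (0.999) and GABARAPL1 (0.998), out of 11292 genes of at least 5 mean CPM. EPCAM, an epithelial adhesion molecule, went from 10.7 to 22.8 CPM and NR4A2, an immediate early nuclear receptor, from 3.85 to 8.65 CPM. IRAK2, a kinase of interleukin-1 and Toll-like receptor signalling, went from 26.5 to 40.7 CPM. JARID2, a cofactor of Polycomb complex PRC2, went from 21.5 to 46.5 CPM, and GABARAPL1, an autophagy gene, from 41.8 to 66.4 CPM. With only 6 libraries in 2 groups, such values mainly restate a difference between the groups of like size relative to its spread, and are given as a description.

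The other genes of the pathway were taken from lists written with earlier results of these data known. Of 100 tested, 27 were called higher and 17 lower, with a median log2 fold change of 0.06. Over all genes tested, 40.8% were called in either direction, 20.8% higher and 20.0% lower, and each list's counts stand beside these shares. Against siNC replicate 3 alone, the calls of ZFP36 (0.30), CELF2 (0.35), KHSRP (-0.35), CEBPD (-0.44), TBXAS1 (-0.46), PLAAT3 (-0.20), LPCAT2 (0.16), AKR1B1 (0.19) and PTGFRN (0.14) were lost. With unfiltered log2(FPKM + 1), those of ZFP36 (0.32), FADS1 (-0.42), AKR1C1 (0.22) and PDE3B (-0.091) were lost, as were those of PLAAT3, LPCAT2, AKR1B1 and PTGFRN. All adjusted p-values in the following paragraphs are from the edgeR quasi-likelihood test over all genes.

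**Figure D5:**
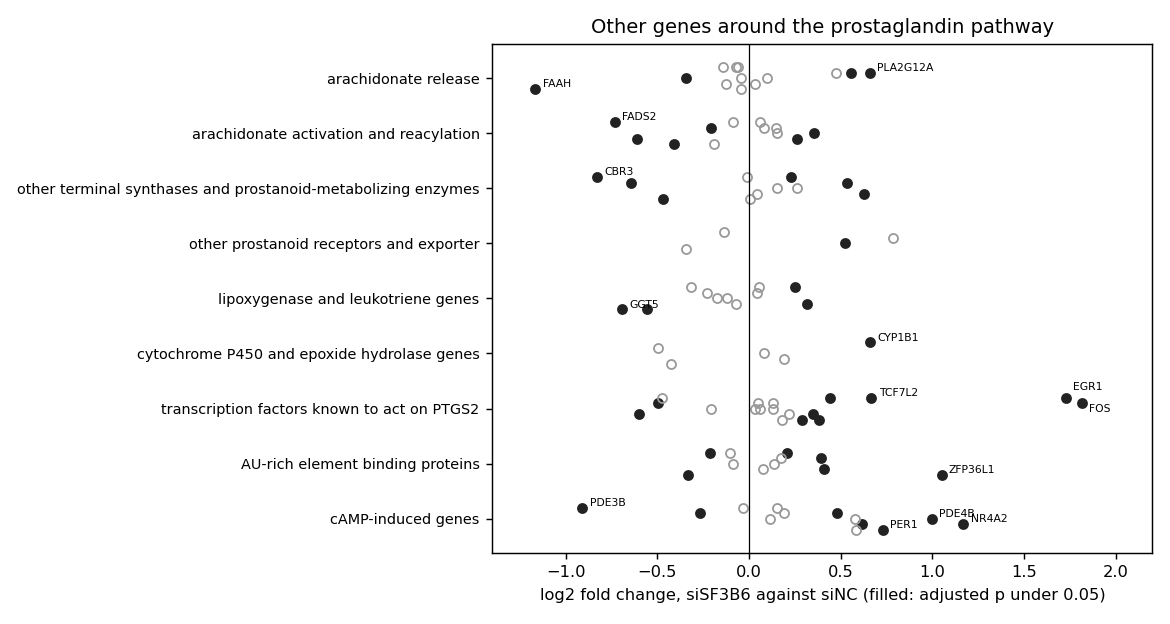
Log2 fold change of each tested gene in the lists around the pathway (filled points: called; open points: not called), 1 row per list, with the largest changes labelled. The list labelled as cyclic AMP-induced genes has a median of 0.48 and holds NR4A2 and PDE4B, and the arachidonate release list has a median of -0.04.

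Arachidonate release held 13 tested genes, of which 2 were called higher, 2 lower and 9 neither. PLA2G12A, a secreted phospholipase A2, rose from 18.0 ± 1.94 to 28.4 ± 1.54 CPM (log2 fold change 0.66, adjusted p = 1.8e-04). ANXA1, annexin A1, known as an inhibitor of phospholipase A2, rose from 511.7 ± 24.97 to 753.1 ± 65.3 CPM (0.56, adjusted p = 0.000314). PLAAT3, an acyltransferase with phospholipase activity, fell from 170.5 to 134.5 CPM (-0.34), a call lost without siNC replicate 1 or 2. The other gene called lower was FAAH, which hydrolyses anandamide, at 0.766 and 0.339 CPM and named after its values were seen.

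Activation and reacylation of arachidonate held 12 tested genes, of which 2 were called higher and 4 lower. FADS2 and FADS1, the desaturases that make arachidonate from linoleate, both fell. FADS2 went from 559.2 ± 16.7 to 336.4 CPM (log2 fold change -0.73, adjusted p = 3.04e-05). FADS1 went from 248.5 ± 40.03 to 187.3 CPM (-0.41), and was -0.27 without siNC replicate 3. LPCAT3, which puts arachidonate into phospholipids, fell from 45.1 to 29.4 CPM (-0.61, adjusted p = 9.06e-05). LPCAT2, a lysophospholipid acyltransferase that also makes platelet-activating factor, rose from 12.7 to 16.2 CPM (0.36), a call lost without siNC replicate 1, siNC replicate 2 or siSF3B6 replicate 3. The remaining gene called lower was ACSL3 (-0.21) and the other gene higher was ACSL5 (0.26), acyl-CoA synthetases named after their values were seen.

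Among other terminal synthases and prostanoid-metabolizing enzymes, 11 were tested, with 3 called higher, 3 lower and 5 neither. All 3 genes called higher were aldo-keto reductases. AKR1C3, a prostaglandin F synthase, rose from 43.7 ± 1.95 to 67.5 CPM (log2 fold change 0.63, adjusted p = 7.89e-05). AKR1C1 rose from 7.14 to 10.3 CPM (0.53) and AKR1B1 from 366.4 to 430.1 CPM (0.23), the latter lost without siNC replicate 1 or 2 or siSF3B6 replicate 1 or 2. AKR1C2, of the same family, was at 0.26 and not called. The AKR1C genes are closely related copies, though not all equally alike, so the division of reads between them is uncertain.

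PRXL2B, another prostaglandin F synthase, fell from 51.7 to 33.1 CPM (log2 fold change -0.64, adjusted p = 8.79e-05). CBR3, a carbonyl reductase, fell from 24.4 to 13.7 CPM (-0.83, adjusted p = 6.88e-05). TBXAS1, thromboxane A synthase, fell from 16.5 to 11.9 CPM (-0.47, adjusted p = 0.00356). CBR1 (0.003), PTGR1 (0.15), PTGR2 (0.04) and ZADH2 (-0.009), which reduce prostaglandins or their 15-keto products, were not called, and all but PTGR1 changed sign under some alternatives. PTGR1 was called higher with replicates 1 and 2 only (0.115). PTGIS, prostacyclin synthase, had 0 reads in 5 libraries and 11 in siSF3B6 replicate 2. That library also had 2.82 CPM of the fibroblast gene COL3A1, against 0.131 to 0.204 CPM in the others. PTGDS and HPGDS, the prostaglandin D synthases, had no more than 5 and 2 reads in any library.

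Of the other prostanoid receptors and the exporter, 4 of 9 had enough reads to be tested. ABCC4, the multidrug resistance protein that exports prostaglandin E2, was at 25.7 and 23.4 CPM (log2 fold change -0.14) and not called. Its groups did not overlap, and it was called lower in 3 alternatives: library-size scaling (-0.24), replicates 1 and 2 only (-0.17) and the GC and length offset (-0.27). TBXA2R, the thromboxane receptor, was at 2.39 and 1.88 CPM (-0.34) and PTGFR, the prostaglandin F receptor, at 0.322 and 0.575 CPM (0.79), neither called. PTGFRN, a negative regulator of PTGFR, was called higher at 2.24 and 3.25 CPM (0.53, adjusted p = 0.0465). Its groups overlapped, and the call was lost without siNC replicate 1 or 2 or siSF3B6 replicate 1 or 3. PTGER4 and PTGER2 were thus the only prostaglandin E2 receptors with enough reads to be tested; PTGER3 had 5 to 13 reads per library.

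Of 18 transcription factors known to act on the PTGS2 promoter, 7 were called higher and 2 lower. The shares over all genes tested were 20.8% higher and 20.0% lower. EGR1 rose from 7.03 ± 0.475 to 23.3 ± 0.673 CPM (log2 fold change 1.73, adjusted p = 2.34e-07). FOS rose from 2.88 ± 0.292 to 10.1 ± 3.61 CPM (1.82, adjusted p = 3.47e-05), with siSF3B6 replicate 2 at 14.2 CPM and the other siSF3B6 libraries at 8.10 and 7.88 CPM. TCF7L2 rose as well (0.67). Named after their values were seen, RELA (0.38) and CREB1 (0.29) were also called higher. NFKB1 (0.22) and CEBPB (-0.21, at 183.5 and 158.8 CPM), likewise named afterwards, were not called. The remaining higher calls are not named here. CEBPD, a C/EBP factor, fell (-0.60), as did NFATC2 (-0.49), which was named after its values were seen.

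Of 11 proteins that bind AU-rich elements, 4 were called higher and 2 lower, beside 20.8% and 20.0% of all genes tested. ZFP36L1, which promotes decay of such mRNAs, rose from 110.5 ± 8.37 to 228.8 ± 13.7 CPM (log2 fold change 1.05, adjusted p = 2.2e-06). Its relative ZFP36, tristetraprolin, rose from 19.4 to 25.7 CPM (0.41, adjusted p = 0.00622), and CELF2, which binds the PTGS2 3′ UTR, rose by 0.39. KHSRP, another decay factor, fell (-0.33). ELAVL1 (HuR), which stabilises PTGS2 mRNA, was at 151.5 and 142.5 CPM and not called; it was named after its values were seen. The remaining calls, RBM3 (0.21) and CELF1 (-0.21), were named after their values were seen.

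Cyclic AMP is the second messenger of PTGER2 and PTGER4. Of 13 genes listed here as induced by it, 5 were called higher and 2 lower, with a median log2 fold change of 0.48. Over all genes tested, 20.8% were called higher and 20.0% lower. Whether cyclic AMP induces each listed gene in these cells was not tested. NR4A2 rose by 1.17 (adjusted p = 2.03e-05). PDE4B, a phosphodiesterase that degrades cyclic AMP, rose from 5.32 to 10.6 CPM (1.00, adjusted p = 2.73e-05), and PER1, a clock gene, from 16.9 to 28 CPM (0.73, adjusted p = 3.42e-05). PDE3B fell from 2.03 to 1.09 CPM (-0.91, adjusted p = 0.00775). The other calls, PDE4D (0.61) and RGS2 (0.48) higher and PDE4A (-0.27) lower, were named after their values were seen. Cyclic AMP itself and prostaglandin E2 were not measured.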

How the data were processed

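Polyadenylated RNA of MDA-MB-231 cells was sequenced in 3 siNC and 3 siSF3B6 libraries, made strand-specific with dUTP per the labels' protocols. Groups and replicate numbers come from the sample titles. The authors deposited whole-number read counts without normalization, and FPKM values were deposited by the authors for 39210 genes, rounded to 2 decimals. The submitters' processing notes name HISAT2, DESeq2 and hg38. Which program counted reads, whether by strand, and with which annotation is not given in the sources used here; reads of antisense or overlapping genes may therefore be mixed. The SF3B6 binding libraries of the study design were not analysed here.

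Counts were filtered with filterByExpr, scaled by TMM and tested with edgeR 4.0.16 (glmQLFit, glmQLFTest; R 4.3.3). Benjamini-Hochberg adjustment covered all 16869 genes with a threshold of 0.05, without a replicate block. Standard errors were derived as the absolute log2 fold change over the root of F. The script was tested on simulated data. The members and lists were chosen with earlier results of these data known.

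Named genes were the members, SF3B6, every tested other synthase and receptor, up to 4 called genes of at least 1 mean CPM with the largest change from each other list, and the 5 genes most like PTGS2. Exceptions are marked. GENCODE 29 on GRCh38, possibly not the authors' own annotation, gave positions and 3′ UTRs, 1 per gene. Promoters are from RefSeq on GRCh38.p14, where 9 of 10 members matched by symbol. Alternatives were DESeq2 1.42.0, limma 3.58.1 on counts and FPKM, other scalings and filters, a replicate block and left-out libraries. An offset for GC content and length, with values for 16675 of 16869 genes (98.8%), was added after the data were seen.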

Additional observations from a re-analysis of the deposited data

How the results depend on the processing

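Over 21 alternatives, the members gave 206 values, of which 187 kept their direction and side of the threshold, 18 lost the call and 1 reversed: PTGES2 was 0.032 with the GC and length offset. The number of genes called was 3817 with unfiltered log2(FPKM + 1), split into 1561 higher and 2256 lower, and 2471 with siNC replicate 3 as lone control, its spread being taken from the siSF3B6 libraries. Scaling by library size only gave 2459 higher and 4558 lower and moved the median of all genes to -0.10; the filtered log2(FPKM + 1) fit gave 2470 and 3472. The lone control left 1 member higher and 3 lower, and 14 other pathway genes higher and 9 lower. Unfiltered log2(FPKM + 1) left 3 members lower and 15 other pathway genes higher. The members' median was -0.195 and -0.233 in the FPKM fits filtered at a mean of 0.5 FPKM. That filter left out PTGS1 and PTGER2, so these medians cover fewer members than the main one. The median was -0.169 in the unfiltered FPKM fit and -0.470 without siSF3B6 replicate 1.

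Leaving out a library gave 5044 to 7571 genes called, 2 to 3 members higher and 4 to 5 lower, 19 to 30 other pathway genes higher and 13 to 19 lower, a member median of -0.470 to -0.287 and SF3B6 at -2.039 to -1.858. Genes near 0 changed sign. CBR1 was -0.001 (DESeq2), -0.002 (voom), -0.001 (RLE factors), -0.103 (library size), -0.002 (no filter), -0.005 (1 CPM filter), -0.002 (replicate block), -0.053, -0.055 and -0.053 (FPKM), and -0.047 to 0.087 with a library left out. PTGR2 was -0.059 (library size), -0.006, -0.007 and -0.006 (FPKM), -0.006 (lone control) and -0.173 (GC and length offset). ZADH2 was -0.065 to 0.043 with a library left out. The cause was not tested.

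Same-numbered libraries deviated together with r = 0.04, 0.106 and 0.136, and each library correlated best with its own number. This is only a hint from the data, and the labels do not say whether same-numbered libraries were paired. With the replicate block, genes called over all genes were 8052, with 3 members higher and 5 lower, 29 and 20 other pathway genes, and an SF3B6 knockdown of -1.959. Depth limits PTGER2, PTGS1 and the untested receptors most.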

Other observations

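Among lipoxygenase and leukotriene genes, 2 of 11 tested were called higher and 2 lower. GGT5, which cleaves leukotriene C4, went from 106.6 ± 15.02 to 65.9 CPM (log2 fold change -0.69, edgeR adjusted p = 1.51e-04), and MGST2, a leukotriene C4 synthase, from 38.4 to 26.1 CPM (-0.55, edgeR adjusted p = 0.00109). MGST1 (0.32, edgeR adjusted p = 0.0285) and MGST3 (0.25, edgeR adjusted p = 0.0376) were called higher, and both calls were lost without siNC replicate 1 or 2 or siSF3B6 replicate 1. The MGST1 call was also lost without siSF3B6 replicate 3, and the MGST3 call without siSF3B6 replicate 2. ALOX5, the 5-lipoxygenase, was at 2.35 and 2.41 CPM and not called, and was named after its values were seen. Both calls were also lost against siNC replicate 3 alone, where MGST1 was 0.06 and MGST3 0.114. Among cytochrome P450 and epoxide hydrolase genes, 1 of 5 was called: CYP1B1, which metabolises estrogens and arachidonate, rose from 96.9 ± 2.84 to 153.2 CPM (0.66, edgeR adjusted p = 1.64e-04).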
